A study of Mus musculus with 12 samples.

Results

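Ionotropic glutamate receptors and their auxiliary proteins were followed across the cell classes of the postnatal day 7 (P7) mouse dentate gyrus and in cultured dentate gyrus neurosphere cells, with and without Larp7. The 10 genes were the AMPA receptor subunits Gria1, Gria2, Gria3 and Gria4, the NMDA receptor subunits Grin1, Grin2b and Grin3a, the kainate receptor subunit Grik2, and the AMPA receptor auxiliary genes Cnih2 and Cacng4. They were found by symbol among 27998 genes of the P7 libraries and by Entrez number among 40814 genes of the neurosphere count table, and all 10 were present in both. Larp7 encodes an RNA-binding protein that stabilises the 7SK small nuclear RNA, which holds the elongation factor P-TEFb inactive, and the study asked what its loss does to dentate gyrus neurogenesis.

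The P7 data were 10x single-cell libraries, 1 for each genotype, each from littermates' gyri dissociated together. The controls (P7_WT) carried the floxed Larp7 alleles without Cre, and the mutants had recombined alleles in the nestin-Cre (P7_L7_Nestin) or Emx1-Cre (P7_L7_Emx1) domain. Nestin-Cre acts in neural precursors and their progeny, and Emx1-Cre in the dorsal telencephalic lineage, so microglia, which come from outside the brain, descend from neither. The titles and the genotype entries of the 2 mutant libraries name opposite Cre drivers. The titles were followed. The library titled P7_L7_Nestin held 7177 barcodes and that titled P7_L7_Emx1 held 6821. The cell numbers that the methods give for each driver fit within these in the order of the titles, whereas the number given for nestin-Cre is larger than all barcodes of P7_L7_Emx1. The neurosphere samples (2 WT and 3 Larp7 knockout, L7_KO) were grown from the dentate gyrus of postnatal day 1 (P1) floxed pups without or with Emx1-Cre. They were then differentiated for 2 days, by their titles (dif2d). The methods describe 2 days on a coated surface with bFGF, at 20 ng/ml, and serum only after that. The paper's results text instead starts differentiation by taking out EGF and FGF and adding serum, so the medium of these samples is uncertain. The paper treats this stage as early differentiation.

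AMPA receptors are tetramers of GRIA proteins and carry most fast excitation in the brain. GRIA2 makes the channel nearly impermeable to calcium, because its message is edited, so the share of Gria2 is a common description of a cell's AMPA receptors. NMDA receptors contain the obligatory GRIN1 with GRIN2 subunits, of which GRIN2B prevails in young neurons, and GRIN3A lowers their calcium permeability. Cornichon proteins such as CNIH2 and transmembrane AMPA receptor regulatory proteins such as CACNG4 help the receptors leave the endoplasmic reticulum and slow their closing. Oligodendrocyte precursors are known to carry AMPA receptors and to receive glutamatergic synapses from neurons.

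In GRCm38 coordinates, Gria1 lies at chr11:57011387-57330244 on the plus strand and Gria3 at chrX:41400854-41678601 on the plus strand. The other 8 genes lie on the minus strand, with Gria2 at chr3:80681450-80802835, Gria4 at chr9:4417896-4796234, Grin1 at chr2:25291181-25319187, Grin2b at chr6:135713233-136173511, Grin3a at chr4:49661611-49845744, Grik2 at chr10:49094833-49788766, Cnih2 at chr19:5092868-5098521 and Cacng4 at chr11:107732357-107794557. Windows around a start site (RefSeq, GRCm38.p6, 250 bases before to 50 after) were at hand, for Gria2, Gria4, Grin1, Grik2 and Cnih2. Those of Gria2, Grin1 and Cnih2 are printed because these genes rose together from progenitors to young neurons (see the class comparisons), each 5′ to 3′ on the gene's strand, with capitals marking the GC box GGGCGG or its reverse complement CCGCCC. They cover chr3:80802786-80803085, chr2:25319138-25319437 and chr19:5098472-5098771.
Gria2: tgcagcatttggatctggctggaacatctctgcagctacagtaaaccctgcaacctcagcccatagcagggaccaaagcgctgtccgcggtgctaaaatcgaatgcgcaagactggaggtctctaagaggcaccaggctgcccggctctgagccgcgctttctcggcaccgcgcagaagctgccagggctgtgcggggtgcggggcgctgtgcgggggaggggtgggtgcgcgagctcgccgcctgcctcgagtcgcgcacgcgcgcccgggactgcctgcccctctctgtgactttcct
Grin1: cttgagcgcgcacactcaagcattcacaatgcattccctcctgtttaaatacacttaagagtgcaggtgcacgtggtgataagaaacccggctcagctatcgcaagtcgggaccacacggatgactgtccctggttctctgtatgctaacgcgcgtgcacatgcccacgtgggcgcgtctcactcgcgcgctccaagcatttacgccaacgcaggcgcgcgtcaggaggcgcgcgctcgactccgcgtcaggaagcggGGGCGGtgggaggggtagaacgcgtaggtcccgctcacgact
Cnih2: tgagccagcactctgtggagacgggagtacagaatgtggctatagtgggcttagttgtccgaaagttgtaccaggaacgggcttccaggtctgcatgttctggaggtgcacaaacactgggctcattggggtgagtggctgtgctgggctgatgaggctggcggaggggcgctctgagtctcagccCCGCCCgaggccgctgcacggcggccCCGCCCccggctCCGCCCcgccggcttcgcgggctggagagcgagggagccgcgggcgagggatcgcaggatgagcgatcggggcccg
The box was found once in the Grin1 window, 3 times in the Cnih2 window and not in that of Gria2, Gria4 or Grik2, and 35.7% of 32851 promoter windows of the same length held it. The sequence TTCAGCACC, part of the RE1 element bound by the neuronal repressor REST, or its reverse complement GGTGCTGAA, was in 0 of the 5 windows and in 0.371% of all windows. A match describes letters only, and the absence of one says nothing about binding.

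A cell was placed in a class when it held at least 3 marker genes of that class and at least 2 more than of any other class. The class names below stand for cells that passed such a gate (RGL for radial glia-like cells, nIPC for neuronal intermediate progenitor-like cells, OPC for oligodendrocyte precursor-like cells, and likewise neuroblast, immature neuron, astrocyte and microglia). None of the 10 genes was a marker. The libraries held 26689878 to 28918491 UMIs (unique molecular identifiers, or counted transcripts), and 43.8% to 53.6% of the cells passed a gate. In the order P7_WT, P7_L7_Nestin and P7_L7_Emx1, there were 1472, 935 and 1087 RGL, 199, 123 and 229 nIPC, 1655, 989 and 901 neuroblasts, 129, 363 and 218 immature neurons, 475, 333 and 422 astrocytes, and 155, 215 and 235 OPC. The gate for immature neurons was passed at its limit by 68.0% to 79.1% of its cells and that for OPC by 15.5% to 24.2%. For nIPC this was 57.7% to 61.8% and for neuroblasts 56.1% to 58.5%. The paper, by clustering, counted more nIPC for each of these genotypes than passed the gate here. Larp7 had 654 UMIs over these 6 classes in P7_WT, 127 in P7_L7_Nestin and 158 in P7_L7_Emx1, so the mutant titles matched a lower Larp7 level, though this does not tell the Cre drivers apart and the 3′ tags may lie outside the deleted exon. Any 2 libraries shared 11 to 23 cell barcodes. Microglia, with 573, 482 and 264 cells, were used as a guide to the level that free RNA from broken cells can give, since these receptors are chiefly neuronal and macroglial. They set no fixed floor, because other classes lay below them for some genes. All P7 levels are CPM of the class sum (counts of UMIs scaled to a common total), a 3′ tag measure that does not depend on gene length, and intervals cover counting error only.

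Gria2 had the highest level of the 10 genes in all 6 neural classes and all 3 libraries. Its level in immature neurons was 998 CPM in P7_WT, 1008 in P7_L7_Nestin and 1016 in P7_L7_Emx1. In OPC it was 998, 948 and 952 CPM in the same order, and the ranges of these 2 classes overlapped. Neuroblasts had 745, 749 and 769 CPM and astrocytes 677, 749 and 665 CPM, also overlapping each other. RGL had 394, 448 and 346 CPM, and nIPC were the lowest with 164, 127 and 131 CPM. Microglia had 207, 137 and 124 CPM, so the nIPC level reached the microglial range. Cells that passed the endothelial gate had 62.8, 41.1 and 90.4 CPM, from 43, 8 and 64 UMIs, below nIPC in each library. Free RNA was not separated from expression in nIPC. By cells, Gria2 had at least 1 UMI in 75.2%, 91.2% and 94.5% of immature neurons and 84.5%, 85.6% and 88.5% of OPC, against 28.6%, 21.2% and 19.3% of microglia, whose median depth was 2145 to 3221 UMIs against 2698 to 3769 in immature neurons.

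Gria1, a subunit of receptors inserted at strengthened synapses, was a neuronal gene in this comparison. Immature neurons had 86.8, 156 and 110 CPM and neuroblasts 45.7, 68.1 and 55.7 CPM, and each library of the first class was above each of the second. OPC followed with 17.7, 41.7 and 39.2 CPM, then RGL with 20.8, 18.4 and 23.7 CPM, and these overlapped. Astrocytes (10.7 to 15.4 CPM) and nIPC (7.96 to 15.5 CPM) reached the microglial range of 9.77 to 15.3 CPM.

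Among the 6 neural classes compared, Gria3 and Gria4 peaked in OPC. Gria3 had 258, 274 and 235 CPM there, against 10.8 to 24.4 CPM in RGL and 12.6 to 22.3 CPM in astrocytes, which overlapped. In immature neurons it rested on 8, 9 and 6 UMIs, and its neuroblast and nIPC levels reached those of microglia. Gria4 had 104, 86.3 and 90.4 CPM in OPC and 21.7, 19.7 and 17.2 CPM in immature neurons. In nIPC it had 15.9, 15.5 and 15.1 CPM, from 16, 11 and 19 UMIs, and every neural class was above the microglial range of 1.33 to 3.53 CPM.

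The make-up of the AMPA subunit UMIs differed between the classes. Gria2 took 70.2% to 72.5% of the Gria1 to Gria4 UMIs in OPC, with Gria3 at 17.8% to 20.3% and Gria4 at 6.39% to 7.52%. Astrocytes held 93.6% to 95.1% Gria2 and immature neurons 84.7% to 88.3%, with Gria1 at 7.67% to 13.1% in the latter. Neuroblasts held 89.2% to 93.0% Gria2 and RGL 85.4% to 91.4%, and microglia, at 84.4% to 93.1%, spanned most of this range. In nIPC the Gria2 share was 77.6% to 84.6% and the Gria4 share 8.21% to 9.55%, from far fewer UMIs. These are shares of RNA within a class, with no test, and no part of the edited form can be read from them.

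**Figure D1:**
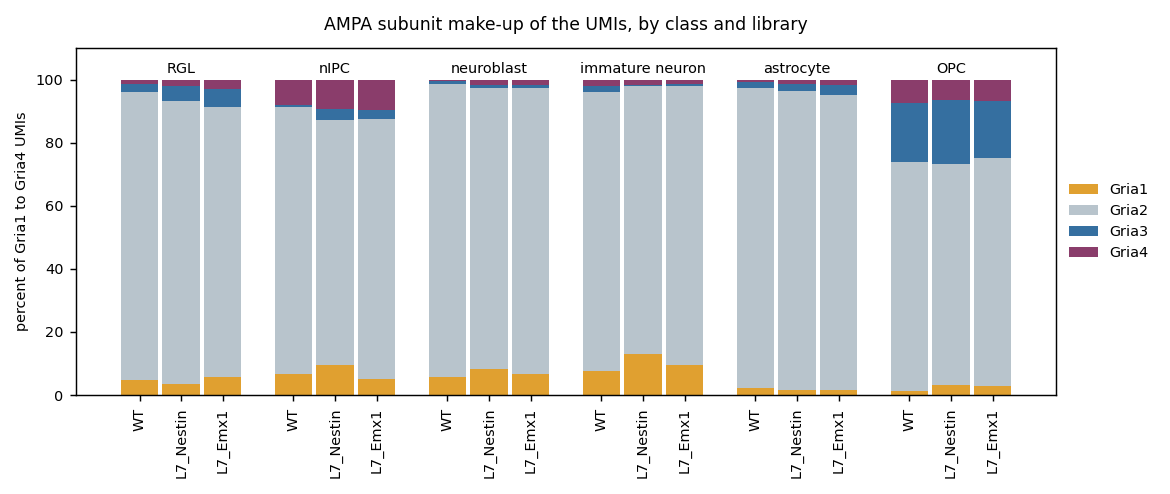
Share of the Gria1, Gria2, Gria3 and Gria4 UMIs (percent, vertical axis) in each marker-gated class, with 1 stacked bar for each P7 library. In OPC, Gria2 takes 70.2% to 72.5% and Gria3 17.8% to 20.3%, while Gria2 takes 93.6% to 95.1% in astrocytes.

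Of the NMDA receptor genes, Grin2b, the GRIN2 subunit of young neurons, was highest in immature neurons, with 108, 202 and 193 CPM. Neuroblasts followed with 47.7, 80.7 and 57.8 CPM, below the immature neurons in every library. RGL had 20.8, 37.3 and 24.8 CPM and astrocytes 7.68 to 27.2 CPM, and both reached the microglial range of 15.9 to 21.2 CPM. In OPC Grin2b was nearly missing, at 0, 3 and 8 UMIs, and the 0 in P7_WT lies under a floor of 3 UMIs, or 7.58 CPM, with an exact Poisson upper limit of 9.32 CPM.

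Grin1, the obligatory subunit, was low in the 6 neural classes compared. OPC had 35.4, 26.8 and 24.1 CPM and immature neurons 21.7, 33.6 and 27.5 CPM, which overlapped. Neuroblasts had 12.7, 15.6 and 12.8 CPM, and nIPC rested on 1, 3 and 4 UMIs. Microglia had 2.35 to 3.91 CPM.

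Grin3a marked the glial side. It had 202, 143 and 151 CPM in OPC and 77.4, 67.9 and 95.9 CPM in astrocytes, with OPC above astrocytes in each library. RGL had 10.4, 3.94 and 8.69 CPM, and in immature neurons it rested on 4, 2 and 3 UMIs, levels that microglia reached. Of the Grin1, Grin2b and Grin3a UMIs, Grin2b thus took 76.1%, 85.2% and 86.2% in immature neurons, whereas Grin3a took 85.1%, 82.1% and 80.6% in OPC and 81.0%, 67.6% and 80.4% in astrocytes.

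Grik2, which encodes the kainate receptor subunit GluK2, varied least over the 6 classes. OPC had 25.3, 44.6 and 43.7 CPM, immature neurons 34.1, 38.0 and 29.8 CPM and neuroblasts 25.6, 27.7 and 24.4 CPM. It was 26.9, 16.9 and 16.7 CPM in nIPC, 12.1 to 19.0 CPM in astrocytes and 10.2 to 18.1 CPM in RGL. Neighbouring classes in this order overlapped except immature neurons and neuroblasts, and all 6 classes were above the microglial range of 2.93 to 7.96 CPM.

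The AMPA auxiliaries split between neurons and glia. Cnih2 rose along the granule cell lineage, with 91.4, 82.1 and 87.1 CPM in RGL, 97.6, 107 and 104 in nIPC, 157, 169 and 181 in neuroblasts and 263, 237 and 248 in immature neurons, and no 2 of these classes overlapped. OPC had 71.4 to 101.1 CPM, and astrocytes, at 37.9 to 45.2 CPM, reached microglia at 30.0 to 50.4 CPM. Cacng4 went the other way, with 743, 830 and 875 CPM in OPC, 139, 114 and 140 CPM in astrocytes and 93.2, 86.6 and 98.4 CPM in RGL. At least 1 Cacng4 UMI was found in 77.4%, 87.0% and 85.1% of OPC. In nIPC, neuroblasts and immature neurons its levels of 9.86 to 37.2 CPM reached the microglial range of 13.5 to 27.2 CPM.

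**Figure D2:**
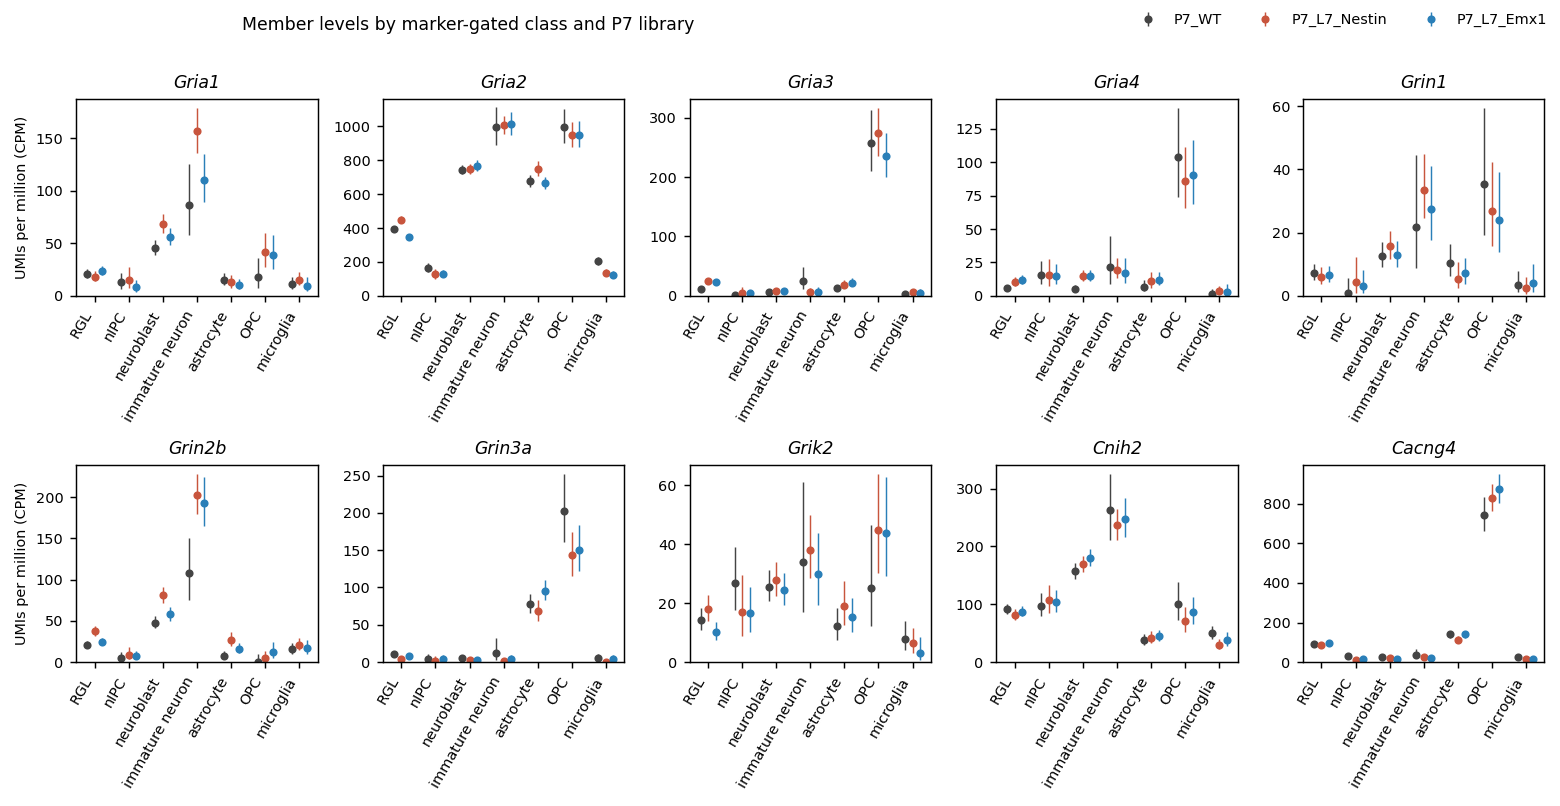
Level of each gene (CPM of UMIs, vertical axis, 1 panel per gene) in the marker-gated classes, with 1 point for each P7 library and bars for the exact Poisson 95% counting interval. Among the classes shown, Gria1, Grin2b and Cnih2 are highest in immature neurons, Gria3, Gria4, Grin3a and Cacng4 in OPC, and Gria2 stands near 1000 in both.

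A pair of small neuronal classes had values but no test. Cajal-Retzius cells, the reelin neurons of the marginal zone, numbered 3, 66 and 16. In P7_L7_Nestin and P7_L7_Emx1 they had 195 and 193 CPM of Gria1, 114 and 81.4 CPM of Gria4 and 398 and 305 CPM of Gria2. Gria4 in OPC of the same libraries was 86.3 and 90.4 CPM. Grin1 in Cajal-Retzius cells was 83.5 and 50.9 CPM, from 30 and 5 UMIs, above the OPC and immature neurons of the same library. The Cajal-Retzius Gria2 share was 55.2% of 259 AMPA subunit UMIs in P7_L7_Nestin and 52.6% of 57 in P7_L7_Emx1. In P7_WT it was 66.7%, from only 9 such UMIs. GABAergic neurons numbered 2, 21 and 21, and in the mutant libraries Grik2 had 95.2 and 69.1 CPM there, from 8 and 6 UMIs.

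The classes were compared by edgeR's quasi-likelihood test on UMIs summed per class and library, with the library as a term, over 12471 genes. The spread is that between 3 libraries of different genotype, so a call sets the class difference against that spread and need not rest on every library. From nIPC to immature neurons, 6 of the 10 genes rose and none fell, where 18.3% of all genes rose and 18.4% fell. Grin2b rose 23.5-fold (log2 4.55, SE 0.25, adjusted p = 2.3e-16), Grin1 10.4-fold (adjusted p = 3.3e-08), Gria1 10.1-fold (adjusted p = 5.4e-13) and Gria2 6.89-fold (adjusted p = 7.4e-21). The nIPC level of Grin2b rested on 5, 6 and 9 UMIs (4.98, 8.45 and 7.17 CPM), below all microglial values, and those of Grin1, Gria1 and Gria2 reached the microglial range. Cnih2 rose 2.33-fold (log2 1.22, SE 0.11, adjusted p = 1.2e-10). Grik2 passed narrowly at 1.59-fold (adjusted p = 0.0426), and this call was lost in 6 of 14 alternatives, among them those without either mutant library. Cacng4 (log2 0.43, adjusted p = 0.327), Gria3 (1.15, 0.156), Gria4 (0.17, 0.753) and Grin3a (0.18, 0.894) did not pass. The median log2 fold change was 1.19 over the 10 genes and 0.03 over all genes.

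From RGL to nIPC most of the genes fell. The test called 6 lower and 3 higher, where 22.7% of all genes fell and 24.2% rose. Gria3 fell 4.79-fold (adjusted p = 5.5e-05), Cacng4 4.53-fold (adjusted p = 3.6e-10), Grin2b 3.66-fold (adjusted p = 6.9e-06) and Gria2 2.60-fold (adjusted p = 1.2e-13). Grin1 (2.23-fold, adjusted p = 0.0434) and Gria1 (1.69-fold, adjusted p = 0.0331) passed narrowly and were called in 6 and 11 of 14 alternatives. The rises of Gria4 (1.78-fold, adjusted p = 0.0277), Grik2 (1.58-fold, adjusted p = 0.0242) and Cnih2 (1.26-fold, adjusted p = 0.0111) were likewise lost in 5 or 6 of 14 alternatives. Grin3a (log2 -1.12, adjusted p = 0.063) did not pass. Leading genes of nIPC included the mitotic genes Ube2c, Cenpa and Cdc20, so that gate held dividing cells.

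OPC exceeded RGL in 7 genes and fell below it in 1, where 20.3% of all genes rose and 21.8% fell. Grin3a was 18.9-fold higher (log2 4.24, SE 0.20, adjusted p = 1.4e-18), Gria3 11.6-fold (adjusted p = 1.8e-18), Gria4 8.59-fold (adjusted p = 1.2e-13) and Cacng4 7.95-fold (adjusted p = 2.1e-20). Grin1 was 3.74-fold, Grik2 2.51-fold and Gria2 2.19-fold higher, with adjusted p of 1.5e-06, 2.0e-05 and 3.2e-13. Grin2b was 5.00-fold lower (adjusted p = 5.9e-06). Gria1 (log2 0.53, adjusted p = 0.0974) and Cnih2 (-0.20, 0.239) did not pass.

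**Figure D3:**
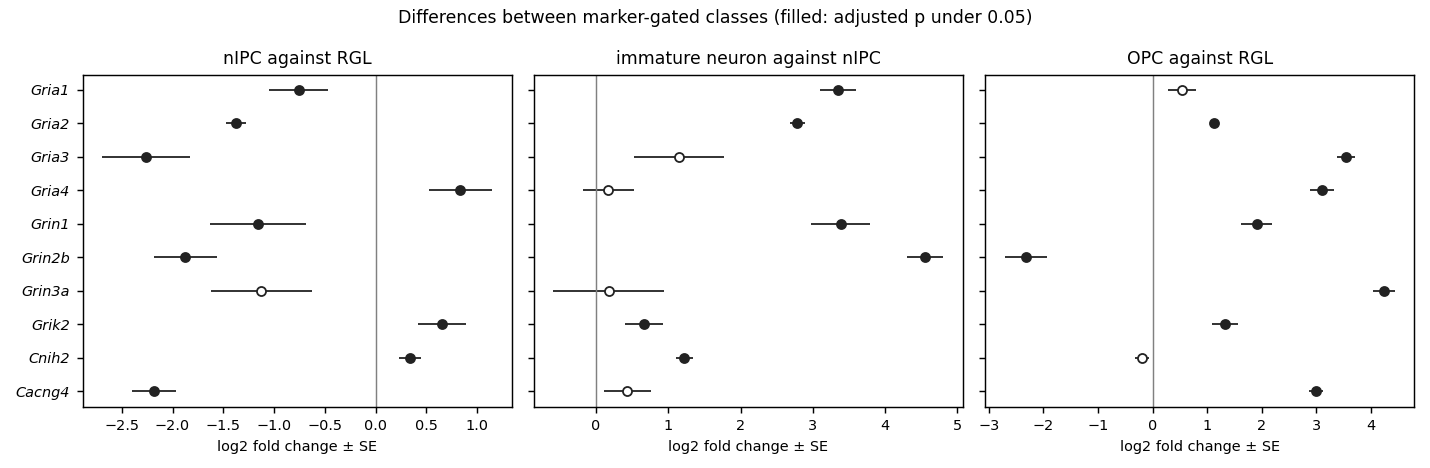
Log2 fold change (horizontal axis) of each gene between marker-gated classes, with its standard error, from the edgeR fit, and with filled points for an adjusted p under 0.05. From nIPC to immature neurons 6 genes are called higher and none lower, and Grin2b runs in opposite directions in the middle and right panels.

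The other genes of the glutamate pathway, from lists that hold none of the 10, gave these counts. From nIPC to immature neurons, 5 of 8 other ionotropic subunits, 8 of 17 other auxiliary and assembly genes, 9 of 15 scaffold and traffic genes and 3 of 5 metabotropic receptors rose, and 2 auxiliary genes fell. Of 5 glutamate transporters, 2 rose and 1 fell. Over all genes, 18.3% rose and 18.4% fell in this contrast. Syndig1, which encodes an AMPA receptor-associated membrane protein, had 0, 2 and 1 UMIs in nIPC and 6, 69 and 46 in immature neurons (adjusted p = 9.9e-11). Against 0 UMIs in nIPC, Grid1 and Grm7 were at least 6.95-fold higher, Grik3 at least 3.48-fold and Shisa9, whose 8 UMIs were all in P7_L7_Nestin, at least 3.09-fold, each against a floor of 3 UMIs over the class. Most UMIs of the other 3 also came from P7_L7_Nestin. In the order P7_WT, P7_L7_Nestin and P7_L7_Emx1, immature neurons held 1, 16 and 1 UMIs of Grid1, 1, 12 and 5 of Grm7 and 0, 7 and 2 of Grik3. From RGL to nIPC, 3 of 8 other ionotropic subunits fell and 0 rose, 5 of 17 auxiliary genes fell and 3 rose, and 3 of 15 scaffold genes fell and 1 rose. Of the metabotropic receptors 2 of 5 fell, and of the transporters 2 fell and 1 rose. Here 22.7% of all genes fell and 24.2% rose, so several of these list counts lay near or under those shares. Slc17a6, the vesicular glutamate transporter VGLUT2, was 12.6-fold higher in nIPC (adjusted p = 1.1e-16), while the glial transporter Slc1a3 was 6.78-fold lower (adjusted p = 5.2e-17) and the metabotropic receptor Grm5 5.81-fold lower (adjusted p = 8.2e-08). Grid1 and Shisa9, at 0 UMIs in nIPC, were at least 8.23-fold and at least 2.02-fold lower.

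In OPC against RGL, 6 of 8 other ionotropic subunits rose, as did 7 of 17 auxiliary genes (3 fell), 6 of 15 scaffold genes, 3 of 5 metabotropic receptors (1 fell) and 1 of 5 transporters (2 fell). Over all genes, 20.3% rose and 21.8% fell. The kainate subunit Grik3 had 16, 29 and 25 UMIs in OPC against 5, 1 and 2 in RGL, where more cells were summed (adjusted p = 3.6e-12). Shisa7, a modulator of synaptic receptors, had 91.0, 113 and 85.9 CPM in OPC against 1.62 to 3.04 CPM in RGL (38.2-fold, adjusted p = 6.6e-17). Neto1, the auxiliary of kainate receptors, had 53.1, 62.49 and 58.8 CPM against 1.38 to 2.62 CPM (27.9-fold, adjusted p = 2.6e-14). Grik1 had 5, 10 and 8 UMIs against 3, 2 and 2 (adjusted p = 5.1e-07). The metabotropic receptor Grm3 ran the other way, with 1, 0 and 3 UMIs in OPC against 231, 214 and 266 in RGL (adjusted p = 1.7e-10).

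For each of the 10 genes the gene with the most similar pattern was sought over 18 sums (6 classes in 3 libraries), which share libraries and depth. By Pearson's r of log2(CPM + 1) these were Shtn1 for Gria1 (0.955), Ntrk3 for Gria2 (0.950), Pdgfa for Gria3 (0.956), Pcsk2 for Gria4 (0.935), Thsd7a for Grin1 (0.947) and Rfx3 for Grin2b (0.914). They were S100b for Grin3a (0.973), Atcay for Grik2 (0.907), Eef2 for Cnih2 (0.963) and Sirt2 for Cacng4 (0.983). Among the 10 genes themselves, the closest pair was Grin3a and Cacng4 (0.908). These values describe the pattern and carry no test.

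Between genotypes there was 1 library on each side, so no test exists, and both mutants were set against the same P7_WT library. A ratio was described as large when it passed 1.5-fold among pairs of gene and class with at least 100 UMIs over both libraries. For P7_L7_Nestin this held for 5 of 27 pairs, all higher, and 12.1% of all gene and class pairs passed. For P7_L7_Emx1 it held for 3 of 28 pairs, 2 higher and 1 lower, and 7.09% of all pairs passed. The median log2 ratio was 0.10 over the pairs of the 10 genes and 0.03 over all pairs for P7_L7_Nestin, and 0.04 for both sets of P7_L7_Emx1. Some pairs under 100 UMIs had intervals that excluded 1 in both mutants, in either direction. Gria4 ratios were 2.97 (1.70 to 5.41) and 2.95 (1.68 to 5.38) in neuroblasts, from 18, 50 and 48 UMIs. Also higher were Gria4 in RGL (1.90 and 2.16) and Grin2b in astrocytes (3.54 and 2.11). Lower were Grin3a in neuroblasts (0.44 and 0.40), Cacng4 in nIPC (0.32 and 0.49) and Gria3 in immature neurons (0.27 and 0.28).

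Gria3 in RGL was 10.8 CPM in P7_WT (47 UMIs), 24.4 in P7_L7_Nestin (93 UMIs) and 23.5 in P7_L7_Emx1 (108 UMIs). Its ratio was 2.25 (95% counting interval 1.57 to 3.27) and 2.16 (1.52 to 3.12). Both passed 1.5-fold in 10 of 11 alternatives. The exception left out cells that also held 3 markers of another class, where the log2 ratios were 0.15 and 0.44. Microglia showed the same order at lower levels. Their Gria3 was 2.65 CPM in P7_WT (4 UMIs), 6.47 in P7_L7_Nestin (11 UMIs) and 4.89 in P7_L7_Emx1 (5 UMIs). The part of free RNA in the RGL ratios was not tested.

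Grin2b was higher in P7_L7_Nestin in RGL (ratio 1.79, 1.37 to 2.36), neuroblasts (1.69, 1.40 to 2.06) and immature neurons (1.87, 1.31 to 2.73). In P7_L7_Emx1 the ratio was 1.78 (1.23 to 2.64) in immature neurons, and 1.19 in RGL (0.90 to 1.59). In immature neurons the UMIs behind these ratios were 35, 277 and 168. For P7_L7_Nestin the ratio passed 1.5-fold in 11 of 11 alternatives in RGL and in 9 of 9 in immature neurons. In neuroblasts it passed in 9 of 11, and the log2 ratio was 0.10 with the stricter gate and -0.056 with cells placed by nearest profile. For P7_L7_Emx1 the immature neuron ratio passed in 7 of 9, with a log2 ratio of 0.31 when each cell was thinned to 1500 UMIs and 0.18 by nearest profile. Microglia had 15.9 CPM of Grin2b in P7_WT (24 UMIs), 21.2 in P7_L7_Nestin (36 UMIs) and 16.6 in P7_L7_Emx1 (17 UMIs). Over all cells that passed the quality filter, Grin2b was 30.5, 75.8 and 46.1 CPM in the same order. The part of free RNA in the RGL ratio of Grin2b was not tested. Gria1 in immature neurons was 1.80 times its P7_WT level in P7_L7_Nestin (1.21 to 2.78), and passed 1.5-fold in 8 of 9 alternatives. In neuroblasts it was 1.49 times (1.21 to 1.83), and the log2 ratio of 0.57 ran from 0.087 by nearest profile to 1.85 without cells that held 3 markers of another class. For P7_L7_Emx1 the Gria1 ratio was 1.27 (0.83 to 2.01) in immature neurons and 1.22 (0.98 to 1.51) in neuroblasts. Both intervals held 1, and the immature neuron ratio passed 1.5-fold in 1 of 9 alternatives.

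The P7_WT neuron gates differed from the mutants' in other ways. Prox1, the granule cell factor, was 672 CPM in the immature neurons of P7_WT against 1036 and 981 CPM, and Ptn, a glial transcript, was 704 CPM in its neuroblasts against 140 and 192 CPM and 403 CPM in its immature neurons against 194 and 275 CPM. The median neuroblast had 1733 UMIs in P7_WT, 3446 in P7_L7_Nestin and 3664 in P7_L7_Emx1. Their part in the Grin2b and Gria1 ratios was not tested.

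Cacng4 in the neuroblasts of P7_L7_Emx1 was the lower pair, at 13.4 CPM against 26.4 CPM (ratio 0.51, 0.35 to 0.73). Microglia showed the same order, with 15.6 CPM in P7_L7_Emx1 against 27.2 CPM in P7_WT, and free RNA was not separated from expression here. Gria2 moved little. Its ratio in RGL was 1.14 (1.06 to 1.22) for P7_L7_Nestin and 0.88 (0.82 to 0.94) for P7_L7_Emx1, and in nIPC 0.80 (0.64 to 0.99) for P7_L7_Emx1. Among OPC, Grin3a was 202 CPM in P7_WT, 143 in P7_L7_Nestin (ratio 0.71, 0.52 to 0.96) and 151 in P7_L7_Emx1, and Cacng4 was 1.18 times its P7_WT level in P7_L7_Emx1.

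**Figure D4:**
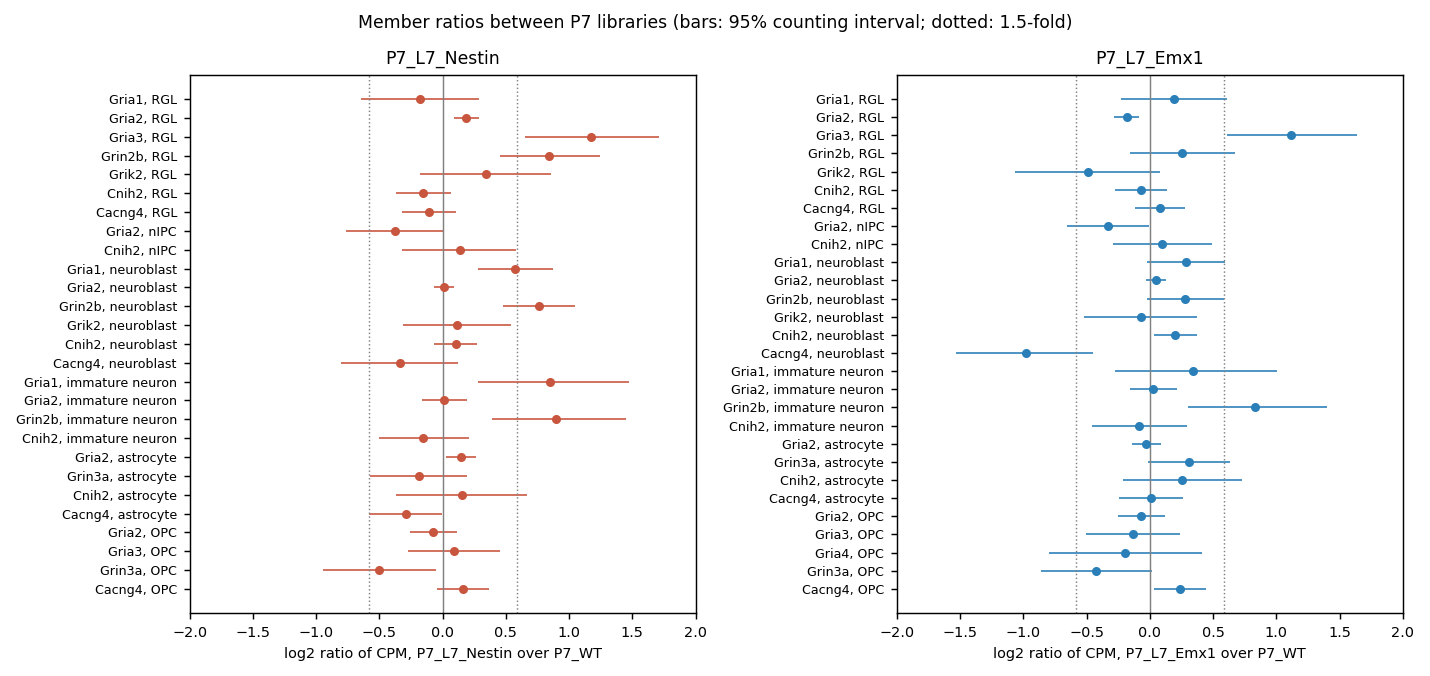
Log2 ratio of CPM (horizontal axis) of each mutant library over P7_WT, for every pair of gene and class with at least 100 UMIs, with the 95% counting interval and dotted lines at 1.5-fold. Gria3 in RGL lies beyond the line in both panels, as does Grin2b in immature neurons, and both panels share the P7_WT library.

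In the neurosphere cells, whose libraries held 59821311 to 62474602 counts, Larp7 was 42.8 and 35.0 normalised CPM in WT and 4.16, 6.35 and 4.39 in L7_KO. It was 7.82-fold lower (log2 -2.97, SE 0.21, adjusted p = 0.0198). The replicate block took the adjusted p to 0.344, and leaving out KO replicate 1 or 3 took it to 0.148 and 0.195. Some OPC and precursor markers were high, with Olig2 at 1349 to 1609 CPM, Pdgfra at 765 to 1267 CPM and Fabp7 at 2247 to 2645 CPM. Others of the same lists were lower, with Sox10 at 13.3 to 133 CPM, Neu4 at 1.63 to 6.82 CPM and Hopx at 1.28 to 3.05 CPM. Wnt8b was at most 0.33 CPM, and Tfap2c was at 0 in every library. The neuronal lists were mixed too. The neuroblast markers summed to 282 to 352 CPM in WT and the immature neuron markers to 700.0 to 803 CPM, with Dcx at 97.0 to 111 CPM and Rtn1 at 274 to 342 CPM, while Neurod1 and Stmn2 were at most 0.13 CPM. Eomes was at most 0.60 CPM, and Cx3cr1 and C1qa were at 0 in every library. In such bulk samples, fewer cells of a type and less RNA per cell cannot be told apart.

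Levels were compared between genes per length. Per kilobase of exon, WT means were 63.1 normalised CPM for Cacng4, 44.6 for Gria2, 39.8 for Gria4, 20.2 for Cnih2, 12.4 for Grin3a and 10.5 for Gria3. Grik2 followed at 5.46, Gria1 at 1.86 and Grin1 at 1.62, and Grin2b was at 0.02. Grin2b stood last of the 10.

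None of the 10 genes passed between L7_KO and WT by edgeR, where 0.0338% of all 17753 genes tested passed. At an unadjusted p under 0.05 there were 4 of the 10 genes and 21.7% of all genes. DESeq2 called 2 of the 10, where it called 10.8% of 14697 genes. Gria2 was 647 and 739 normalised CPM in WT and 487, 594 and 548 in L7_KO, so the groups did not overlap, as for 42.6% of all genes. Its log2 fold change was -0.35 (SE 0.11, adjusted p = 0.152), with 0.0324 by DESeq2. Gria3 was 104 and 103 in WT against 122, 150 and 143 in L7_KO, also without overlap (log2 0.41, SE 0.09, adjusted p = 0.112), with 0.0071 by DESeq2.

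Gria4 was 189 and 312 in WT and 195, 155 and 164 in L7_KO, and Grik2 58.1 and 86.4 in WT and 45.6, 59.95 and 51.4 in L7_KO. For both, WT replicate 2 was the high library and the groups overlapped (log2 -0.55 and -0.47, adjusted p = 0.200 and 0.218). Without WT replicate 1, which left only that high library on the WT side, the log2 fold changes were -0.86 and -0.72. Grin1 was 15.9 and 15.6 in WT and 12.0, 12.7 and 15.6 in L7_KO. Grin3a (148 to 158), Cacng4 (214 to 253) and Cnih2 (26.7 to 30.6) lay within narrow ranges over all 5 libraries. Gria1 was 11.7 and 10.7 in WT against 12.8, 6.72 and 11.3 in L7_KO, and Grin2b rested on 21 to 69 counts per library. The median log2 fold change was -0.04 over the 10 genes and 0.01 over all genes tested.

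No gene of the other pathway lists was called by edgeR. At an unadjusted p under 0.05, where 21.7% of all genes stood, there were 3 of 10 other ionotropic subunits, 5 of 16 auxiliary genes, 5 of 16 scaffold genes, 2 of 5 metabotropic receptors and 2 of 3 transporters. The astrocyte markers summed to 2208 to 2657 CPM in WT and 1343 to 1778 CPM in L7_KO, with 8 of 12 lower at an unadjusted p under 0.05 and none called, and the OPC markers to 7189 to 7439 CPM in WT and 7395 to 8396 CPM in L7_KO. Their part in the receptor values was not tested.

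**Figure D5:**
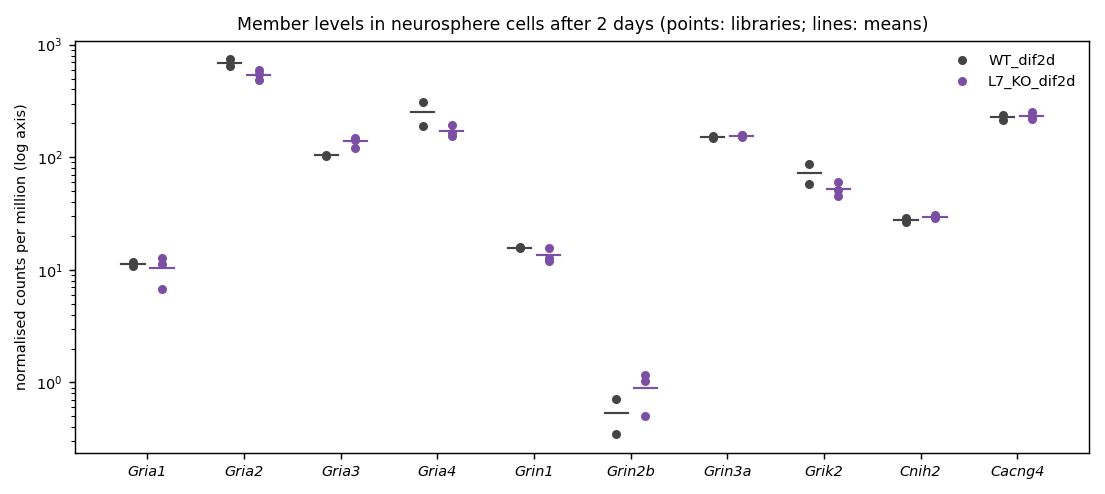
Normalised CPM (log axis) of each gene in neurosphere cells after 2 days of differentiation, with 1 point for each library and a line for the group mean, in 2 WT and 3 L7_KO libraries. Gria2 and Gria3 are the genes whose groups do not overlap, and Grin2b lies far under the others.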

How the data were processed

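The P7 values were UMI counts per gene and cell, deposited by the authors as filtered 10x matrices (mm10; the file header names Cell Ranger 4.0.0 and the methods 6.1.2). The neurosphere values were read counts per gene deposited by the authors, who aligned to the Ensembl 102 transcriptome with Minimap2 2.24 (featureCounts is named in the processing notes), and 5 columns of that table that match no sample were not used. The sources used here do not state how strand and shared reads were handled, so overlapping or near-identical genes are uncertain.

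Cells with more than 500 genes and under 15% mitochondrial UMIs were kept and gated on fixed marker lists, with an exception for GABAergic and Cajal-Retzius lists that was set after the markers were seen. Doublets were kept and no caller was run. Class sums of at least 50 cells were tested with edgeR 4.0.16 (TMM, filterByExpr, quasi-likelihood, Benjamini-Hochberg adjusted p over all genes, 0.05), and neurosphere counts likewise, with DESeq2 1.42.0 as an alternative. The scripts used R 4.3.3 and Python 3.11.15. On simulated data, 84.0% of 200 genes changed 2-fold were recovered between classes and 43.5% in neurospheres. The changed genes were drawn only from those above a minimum mean level, with the same dispersion for every gene. Recovery of genes at lower levels was not measured. Intervals are exact Poisson or conditional binomial, at 95%.

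The text names all 10 genes, at most the 5 largest changes of the pathway lists per contrast, Larp7, and the 1 most similar gene for each. Marker genes and library checks quoted beside a result were chosen after their values were seen. The 10 genes and the lists were chosen with earlier results of these data known. No source says that replicates came from separate cultures, so p-values measure the spread between these samples, and that spread may be technical. Neurosphere symbols were matched for 39373 of 40814 genes. ATAC and CUT&Tag samples of the series were not analysed here.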

Additional observations from a re-analysis of the deposited data

Results flagged for a closer look

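Gria2 in RGL stood out because the mutant libraries lay on opposite sides of P7_WT, with counting intervals that exclude a ratio of 1. The log2 ratio was 0.19 for P7_L7_Nestin and -0.18 for P7_L7_Emx1. With 1 library per genotype, the difference was not tested. The P7_L7_Nestin value was smaller with the wider gate (0.074) and nearly 0 with cells placed by nearest profile (0.0082), while that of P7_L7_Emx1 ran from -0.33 to -0.17 over 11 alternatives.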

How the results depend on the processing

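The neurosphere count of 6 genes became 3 with no filter on low counts, 1591 by DESeq2 and 0 with the replicate block, and ran from 0 (without KO replicate 3) to 1905 (without WT replicate 1) when libraries were left out in turn. The replicate numbers gave correlations of 0.04 and 0.21 between same-numbered libraries, with 2 pairs only, so they share a number and the block is no pairing. It called 0 of the 10 genes. That count of 0 became 2 by DESeq2 and ran from 0 to 2 when libraries were left out. Small uncalled changes turned sign for Gria1 (0.11 without KO replicate 2), Grin3a (from -0.00042 without WT replicate 2 to 0.071 without WT replicate 1) and Cacng4 (-0.00024 without KO replicate 2, and over all libraries left out -0.017 to 0.13).

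Between classes, the counts of 6 higher and 0 lower from nIPC to immature neurons were within 1.5 times in all 14 alternatives. From RGL to nIPC, the 3 higher became 0 with the stricter gate and with cells thinned to 1500 UMIs, 1 with cells placed by nearest profile, and 1 without each library, and the 6 lower became 2 when thinned. In OPC against RGL, the 7 higher became 3 and the 1 lower 0 without cells that hold 3 markers of another class, and the 1 lower became 2 without cells of another lineage (chosen after seeing the data). Changes that turned sign were Gria3 (-0.34 thinned) and Grin3a (-0.016 with the wider gate, -0.082 with over 1000 genes, and -0.31 without P7_WT to 0.57 without P7_L7_Emx1) in immature neurons against nIPC, Gria4 (-0.40 thinned) and Grik2 (-0.017 by nearest profile) in nIPC against RGL, and Cnih2 (0.28 thinned) in OPC against RGL. Without cells that hold 3 markers of another class, only OPC against RGL could be fitted, because nIPC and immature neurons kept under 50 cells. The contrast of GABAergic with immature neurons was not run, for lack of cells.

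Between libraries, the 5 pairs past 1.5-fold for P7_L7_Nestin became 2 (stricter gate), 14 (wider gate), 10 (nearest profile), 2 (thinned), 0 (without 3 markers of another class) and 8 (mean over cells), and the 3 for P7_L7_Emx1 became 1, 7, 6, 1 and 0 in the first 5. The number of pairs tested changed with these settings. Grin2b in the neuroblasts of P7_L7_Nestin turned to -0.056 by nearest profile. The cause was not tested for any of these. Low UMI counts limit the nIPC values most.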
